A study of Saccharomyces cerevisiae with 18 samples.

Results

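The 37 genes described here encode the protein folding chaperones of the budding yeast *Saccharomyces cerevisiae* together with *HSF1*, the heat shock transcription factor that drives many of them. A gene was included when an array probe set carried its symbol and no other, and the probe set with the highest mean stood for the gene. That gave 35 of the 37 genes, out of 5656 genes on the array with a probe set of their own. *SSB1* and *SSB2*, which encode the near-identical Hsp70 proteins of the ribosome, share their only probe set and have no value below.

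Heat shock factor binds the promoters of chaperone genes and raises their transcription when unfolded protein accumulates, and in yeast the Msn2 and Msn4 factors act on a partly overlapping set of stress genes. The chaperones form machines. Hsp70 proteins bind exposed hydrophobic segments under the control of J-proteins and nucleotide exchange factors, Hsp90 matures kinases and other clients with a set of co-chaperones, Hsp104 pulls proteins out of aggregates, small heat shock proteins hold them, and the chaperonins fold proteins inside a closed chamber. Mitochondria have an Hsp70 and a chaperonin of their own, and the endoplasmic reticulum has an Hsp70 of its own.

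The RNA came from 18 cultures, in 6 groups of 3 biological replicates, and each culture was read on 1 Affymetrix YG-S98 array. All cultures were DBY747, a *MAT*a laboratory strain with *his3*, *leu2*, *ura3* and *trp1* mutations, grown in rich glucose medium to mid-log phase. The drugs were enediynes, antibiotics that cut DNA, added from methanol stocks: calicheamicin at 1 nM, esperamicin A1 at 3 nM and neocarzinostatin at 4 nM, each with methanol alone as its control. Irradiated cells took 210 Gy of γ-radiation, and their control is labelled a mock irradiation, which the study's text describes as a water vehicle. All were frozen 15 min after exposure began, at ambient temperature, and the doses were chosen by the study for similar killing. The question put to these genes was whether DNA breaks, made by a DNA-selective drug or by radiation, changed the level of the folding machinery, and whether the 2 kinds of unexposed cells had the same level of it. The enediyne doses differ, so their values are given side by side and the drugs are not compared with each other.

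Values are RMA intensities, a background-corrected and quantile-normalized brightness of a probe set, which has no fixed relation to RNA copies and is not compared between genes. Per-array values are always listed in the order of replicates 1, 2 and 3. Changes are log2 fold changes with limma's standard error (SE) over 3 arrays per group. To be called, a gene had to change at least 1.5-fold with a p of at most 0.10 after Benjamini-Hochberg adjustment over all 5656 genes. The median SE of a change over all genes with γ-radiation was 0.20. The array medians lay between 15.3 and 16.8, and *CPR7*, *APJ1*, *SSA3* and *HSP78* had means below the highest of these. The *MAT*a genes *MFA1* and *MFA2* ranked at 97.5 and 98.2% of all genes by mean intensity and the *MAT*α genes *MF(ALPHA)1*, *MF(ALPHA)2* and *STE3* at 37.4, 27.1 and 38.9%, with the *MAT*a transporter gene *STE6* at 26.0%. As a sign of RNA quality, the 5' actin control less the 3' one, in log2 units, was -3.59 in methanol replicate 1, -2.34 to -1.53 in the esperamicin A1 arrays and -0.80 to -0.69 in the irradiated and mock-irradiated arrays. Each array reports a whole culture, so a lower level in all cells and a lower share of expressing cells cannot be told apart.

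None of the 35 genes was called with either kind of exposure. With γ-radiation 0 members were called, where 51 genes in all, 0.902% of those tested, were called. Calicheamicin, esperamicin A1, neocarzinostatin and the mean of the enediynes called 0 members each, and of all genes also 0%. These counts are limma's. The study, at the same thresholds but with another test and a filter on expressed genes, listed changed genes for each drug. It also listed more for γ-radiation than were called here. At an unadjusted p under 0.05 limma gave 1 member for γ-radiation (2.86%, against 492 genes in all, 8.70%). It gave 2 for calicheamicin (5.71%, against 220 genes, 3.89%) and 0 for esperamicin A1 (against 207 genes, 3.66%). For neocarzinostatin it gave 5 (14.3%, against 465 genes, 8.22%), and for the mean of the 3 drugs 1 (2.86%, against 324 genes, 5.73%). The median change of the members was -0.05 with γ-radiation, where that of all genes was -0.04, and it was 0.11, 0.02 and 0.06 with calicheamicin, esperamicin A1 and neocarzinostatin, where that of all genes was 0.05, 0.04 and 0.04. The 95% interval of the change lay inside 2-fold in both directions for 32 of 35 members with γ-radiation (91.4%, against 91.8% of all genes) and for 33 of 35 with the drugs on average (94.3%, against 97.3% of all genes). The exceptions were *HSP30* and *HSP42* in both comparisons and *HSP78* with γ-radiation.

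The unexposed cells differed from each other. With methanol vehicle 8 of the 35 genes were lower than with mock irradiation, where 316 genes, 5.59% of those tested, were called lower, and 0 were higher, where 176 genes, 3.11%, were called higher. The 8 were *SIS1*, *FES1*, *HSP42*, *APJ1*, *SSA4*, *SSE2*, *HSP104* and *HSP30*. Of the members 24 lay below 0 in this comparison and the median change was -0.14, where that of all genes was -0.05. The 3 methanol arrays lay below all 3 mock arrays for 9 members, where 14.3% of all genes did so, and above them for *HSF1* and *CPR6*, where 8.77% of all genes did so. The 9 were *HSP104*, *HSP42*, *SBA1*, *SSE2*, *FES1*, *SIS1*, *APJ1*, *HSP60* and *KAR2*. The vehicle and every other way in which the enediyne and the irradiation experiments differed cannot be told apart in this design. The number of members called was 2 when only these 6 arrays were fitted (*HSP42* and *SIS1*), 4 without methanol replicate 2 (*APJ1*, *FES1*, *HSP42* and *SIS1*) and 3 without mock replicate 2 (*FES1*, *HSP42* and *SIS1*).

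**Figure D1:**
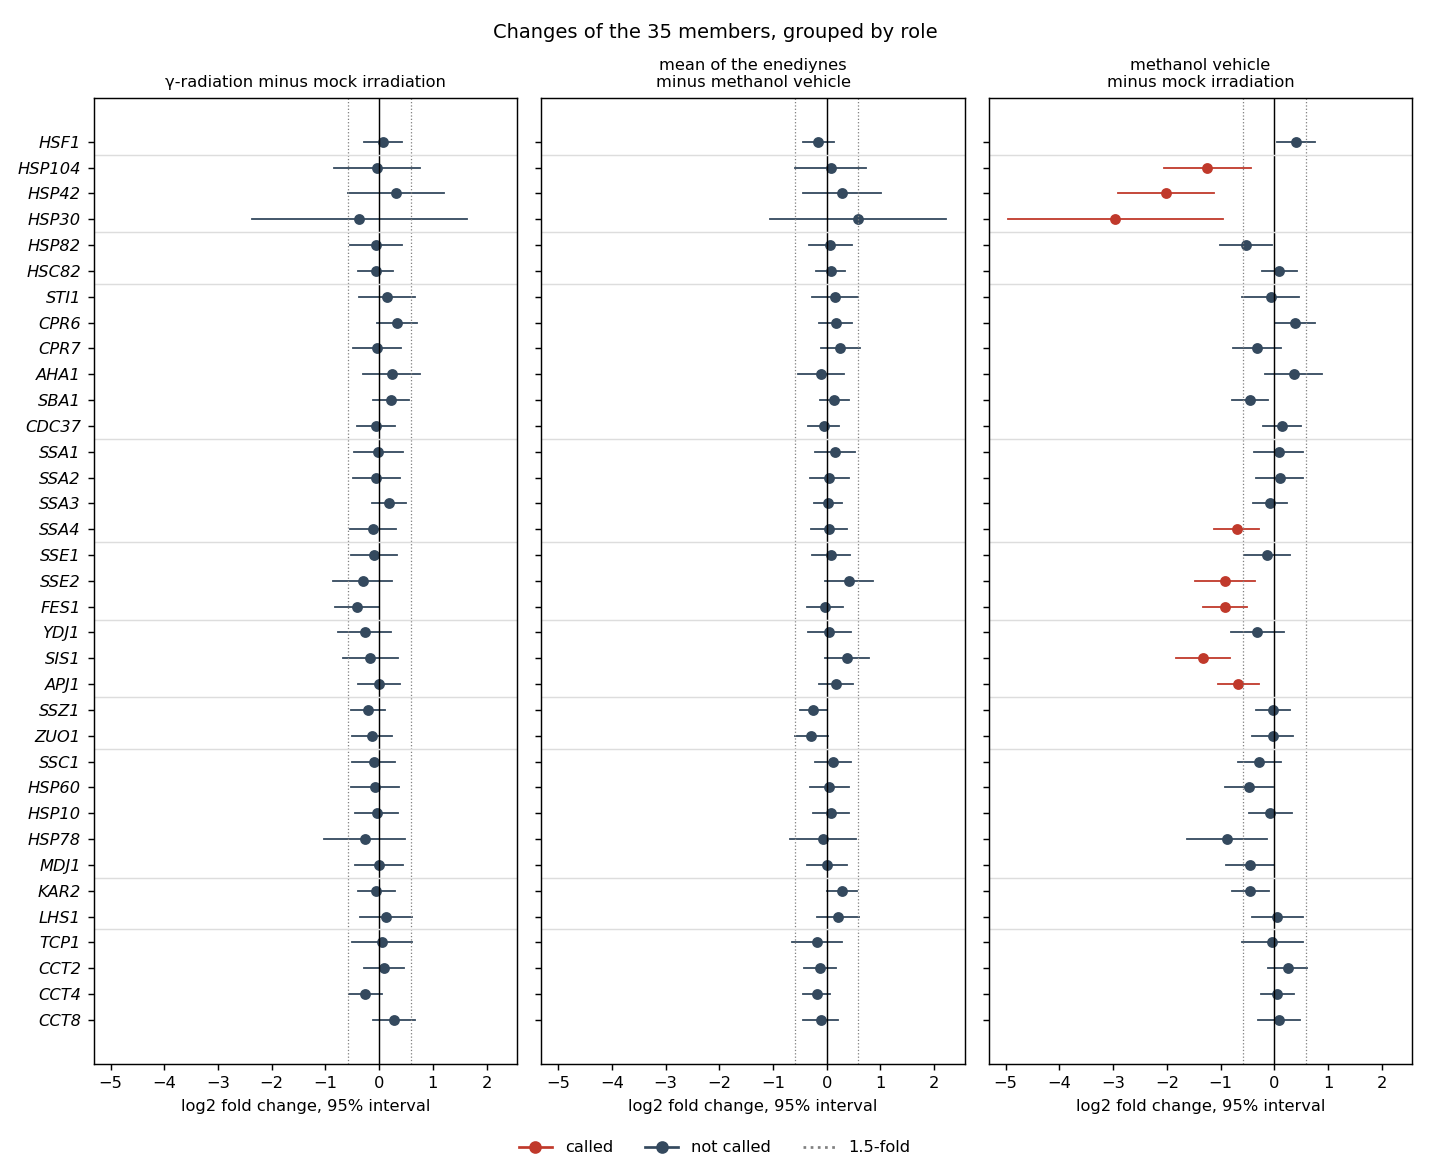
Log2 fold change of each of the 35 members (points) with its 95% interval (bars) for γ-radiation minus mock irradiation, the mean of the enediynes minus methanol vehicle, and methanol vehicle minus mock irradiation, with genes grouped by role from *HSF1* at the top to the chaperonin CCT at the bottom. The 8 genes called (red) are all in the right panel and left of the dotted 1.5-fold line.

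*HSF1* itself, the regulator, did not pass the test in any comparison. It read 26.4, 34.98 and 27.6 in calicheamicin cells, 33.97, 41.5 and 40.9 in esperamicin A1 cells and 40.7, 36.3 and 30.9 in neocarzinostatin cells, against 47.6, 37.9 and 30.98 with methanol vehicle. It read 30.9, 31.5 and 28.1 with γ-radiation, against 27.8, 29.4 and 29.3 with mock irradiation. All 3 methanol arrays lay above all 3 mock arrays, and the calicheamicin arrays overlapped the methanol arrays only through calicheamicin replicate 2 and methanol replicate 3. The change with methanol vehicle against mock irradiation was 0.41 ± 0.17 (SE, n = 3 each, limma adjusted p = 0.154), in the direction opposite to that of the 8 chaperone genes called there. The change with calicheamicin was -0.38 ± 0.17 (adjusted p = 0.923, 95% interval -0.73 to -0.02), one of the 2 smallest p-values among the members for that drug. Without methanol replicate 1 the calicheamicin change was -0.22.

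*HSP104*, *HSP42* and *HSP30* were all called lower with methanol vehicle, and *HSP30* and *HSP42* had the largest falls of the 35. The genes were listed together, although *HSP30* encodes a membrane protein and no disaggregase or small heat shock protein. *HSP26*, a small heat shock gene counted with the further genes below, was not called. *HSP42* encodes a cytosolic small heat shock protein that gathers misfolded proteins into deposits. *HSP42* read 85.1, 30.2 and 52.8 in calicheamicin cells, 64.96, 22.2 and 41.0 in esperamicin A1 cells and 64.6, 31.4 and 66.3 in neocarzinostatin cells, against 48.9, 22.4 and 51.8 with methanol vehicle. With the irradiation arrays it read 166, 248 and 176 with γ-radiation, against 127, 203 and 144 with mock irradiation. All 12 arrays of cells given methanol, with or without a drug, lay between 22.2 and 85.1, below all 6 irradiated and mock-irradiated arrays at 127 to 248. The level fell by 2.01 on the log2 scale with methanol vehicle against mock irradiation, a fold of 4.03 (SE 0.43, limma adjusted p = 0.0105). *HSP42* was called there in 29 of 30 analyses, counting the main one, and not in the local pooled error test described below. The analyses that left out a drug or γ-radiation array could alter only the spread used in this comparison. With γ-radiation the change was 0.32 ± 0.43 (adjusted p = 0.9, 95% interval -0.58 to 1.22), and with the drugs it was 0.42 in calicheamicin cells, 0.02 in esperamicin A1 cells and 0.41 in neocarzinostatin cells, none of them called.

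*HSP104* encodes the hexameric ATPase that dissolves aggregates together with Hsp70. *HSP104* read 149.9, 53.1 and 89.7 in calicheamicin cells, 125, 63.8 and 64.95 in esperamicin A1 cells and 99.02, 70.2 and 78.7 in neocarzinostatin cells, against 129, 46.7 and 84.5 with methanol vehicle. Around irradiation it read 147, 204 and 209 with γ-radiation, against 131, 220.1 and 236 with mock irradiation. Replicate 1 was the lowest of the mock arrays and of the γ-radiation arrays but the highest of the methanol arrays and of each drug's arrays. The methanol arrays nevertheless stayed below the mock arrays, the closest pair being 129 and 131, and the change was -1.25 ± 0.38 (adjusted p = 0.0592). The call was lost without methanol replicate 2 (adjusted p = 0.215), mock replicate 2 (0.179) or mock replicate 3 (0.158) and under cyclic loess normalization (0.108). With γ-radiation the change was -0.04, and with the drugs it was 0.17 in calicheamicin cells, 0.01 in esperamicin A1 cells and 0.04 in neocarzinostatin cells.

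*HSP30* encodes a small plasma membrane protein that restrains the proton pump Pma1 under stress. It had the widest spread of the members, 40.2-fold between its lowest and highest array, where the others spanned 1.46-fold (*HSC82*) to 11.2-fold (*HSP42*). *HSP30* read 100.3, 11.8 and 24.02 in calicheamicin cells, 61.98, 15.3 and 38.4 in esperamicin A1 cells and 135, 30.2 and 78.2 in neocarzinostatin cells, against 158, 8.49 and 15.4 with methanol vehicle. Irradiated and mock-irradiated cells gave 225, 231 and 86.4 with γ-radiation, against 341, 324 and 87.8 with mock irradiation. Methanol replicate 1 lay above mock replicate 3 and γ-radiation replicate 3, so the groups overlapped. The change with methanol vehicle against mock irradiation was -2.96 ± 0.95 (adjusted p = 0.0694, 95% interval -4.96 to -0.96). It was lost without any 1 of methanol replicate 2 (adjusted p = 0.230), methanol replicate 3 (0.145), mock replicate 1 (0.170) or mock replicate 2 (0.202). With neocarzinostatin the change was 1.32 ± 0.95 (adjusted p = 0.752), and the drug's arrays lay inside the range of the methanol arrays. The local pooled error test, which sets medians of a group against a spread shared by genes of like intensity, called it with neocarzinostatin at a difference of medians of 2.35 (adjusted p = 0.00156), 1 member where 0.053% of all genes were called. The same test called *HSP30* and no other member with methanol vehicle against mock irradiation, where it called 0.866% of all genes.

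**Figure D2:**
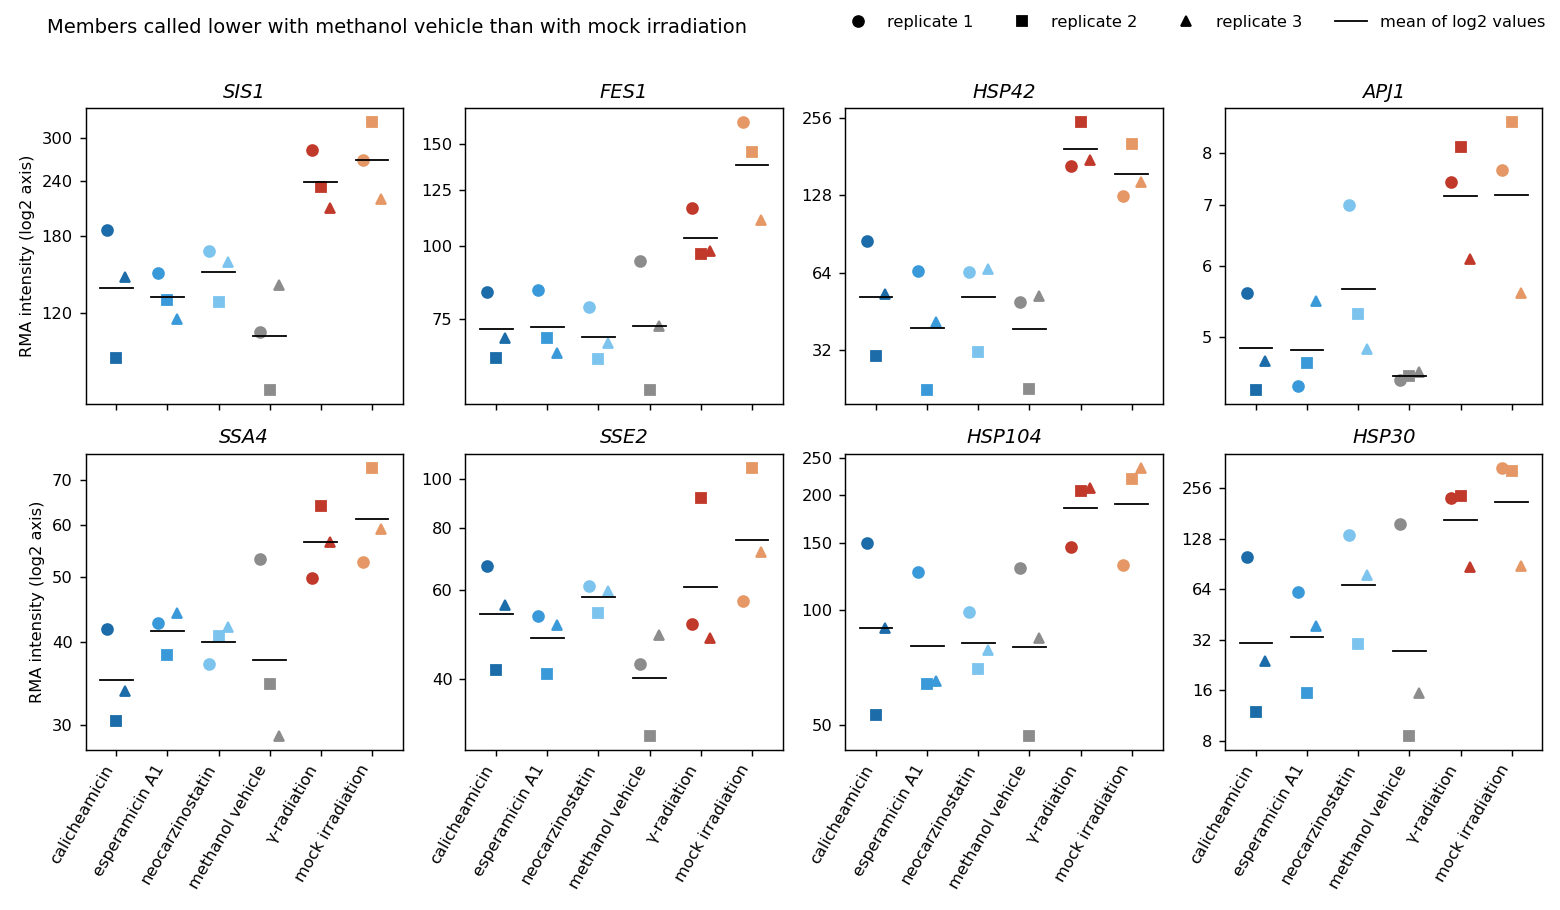
RMA intensity on a log2 axis, with its own scale for each gene, of the 8 members called lower with methanol vehicle than with mock irradiation, by group. Symbols give the replicate number of each array and bars the mean of the log2 values, and for *HSP42*, *FES1* and *SIS1* the 12 blue and grey arrays lie below the 6 red and orange ones.

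The 2 Hsp90 genes encode near-identical proteins that differ in regulation: *HSP82* is the heat-inducible one and *HSC82* the more constitutive one. A further probe set matches both and is not used. *HSP82* read 224, 171 and 149 in calicheamicin cells, 201, 159 and 132 in esperamicin A1 cells and 236, 159 and 160.2 in neocarzinostatin cells, against 232, 137 and 144 with methanol vehicle. Its levels were 221, 223 and 247 with γ-radiation, against 202, 293 and 234 with mock irradiation. In *HSP82* methanol replicate 1 lay inside the mock range and the other 2 methanol arrays lay below it. *HSC82* read 1505, 1506 and 1332 in calicheamicin cells, 1266, 1540.5 and 1085 in esperamicin A1 cells and 1401, 1530.1 and 1319 in neocarzinostatin cells, against 1574, 1323 and 1078 with methanol vehicle. For the same gene the values were 1162, 1111 and 1246 with γ-radiation, against 1162, 1233 and 1282 with mock irradiation. The methanol range of *HSC82* enclosed the mock range. The changes with methanol vehicle were -0.53 ± 0.23 for *HSP82* (adjusted p = 0.173) and 0.10 ± 0.16 for *HSC82* (adjusted p = 0.758). *HSP82* was called without methanol replicate 1, at a change of -0.78 (adjusted p = 0.0565), and with the actin difference as a covariate (-0.80, adjusted p = 0.0650). With γ-radiation *HSP82* and *HSC82* both changed by -0.06.

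The Hsp90 co-chaperones had no called member. *CPR6* and *CPR7* encode cyclophilins that bind Hsp90, and of the 2 *CPR6* had the second smallest p of the members with γ-radiation. *CPR6* read 595, 561 and 412 in calicheamicin cells, 564, 573 and 419.6 in esperamicin A1 cells and 509.9, 394 and 454 in neocarzinostatin cells, against 518, 429.7 and 376 with methanol vehicle. With the other 2 groups it read 471, 382 and 422 with γ-radiation, against 356, 322 and 328 with mock irradiation. All 3 irradiated arrays and all 3 methanol arrays lay above the mock arrays. The change was 0.34 ± 0.18 with γ-radiation (adjusted p = 0.638) and 0.38 ± 0.18 with methanol vehicle (adjusted p = 0.204). *CPR7* was among the dimmest members, at 3.24 to 5.88 over the arrays.

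*SBA1* encodes the p23 co-chaperone, which holds Hsp90 in its closed form. *SBA1* read 239, 174 and 235 in calicheamicin cells, 194, 183 and 192 in esperamicin A1 cells and 179.9, 242 and 209 in neocarzinostatin cells, against 214, 167 and 176 with methanol vehicle. It also read 337, 275 and 278 with γ-radiation, against 247, 264 and 248 with mock irradiation. The 12 arrays of methanol-treated cells, at 167 to 242 (median 193), lay below the 6 others, at 247 to 337 (median 269), and all 3 irradiated arrays lay above all 3 mock arrays. The change with methanol vehicle was -0.45 ± 0.16, with an adjusted p of 0.0970 but a fold of 1.37, under the 1.5 required. *STI1*, which links Hsp70 to Hsp90, *AHA1*, which stimulates the Hsp90 ATPase, and *CDC37*, which brings in kinases, changed by -0.07, 0.36 and 0.15 with methanol vehicle and by 0.15, 0.23 and -0.05 with γ-radiation, none called. In *AHA1* methanol replicate 1, the array with the lowest actin difference, read 228. The other methanol arrays, at 118 and 111, lay inside the mock range of 79.7 to 143.

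Among the 4 cytosolic Hsp70 genes of the SSA family, *SSA4*, the strongly stress-inducible one, was called with methanol vehicle and the others were not. *SSA4* read 41.7, 30.4 and 33.7 in calicheamicin cells, 42.6, 38.2 and 44.1 in esperamicin A1 cells and 37.1, 40.8 and 42.1 in neocarzinostatin cells, against 53.4, 34.5 and 28.8 with methanol vehicle. It read in addition 49.8, 63.95 and 56.5 with γ-radiation, against 52.8, 73.2 and 59.2 with mock irradiation. The 9 drug arrays, at 30.4 to 44.1, lay below the 6 irradiated and mock-irradiated arrays, at 49.8 to 73.2, but methanol replicate 1 lay inside that range. The change with methanol vehicle was -0.70 ± 0.20, a fold of 1.63 (adjusted p = 0.0438). It was not called without methanol replicate 2 (adjusted p = 0.121), methanol replicate 3 (0.129) or mock replicate 2 (0.179).

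*SSA1* and *SSA2*, the near-identical and largely constitutive pair, share 2 further probe sets, which are not used, and the probe set of each may also take up RNA of the other. *SSA1* read 5902, 3797 and 4075 in calicheamicin cells, 3446, 3762 and 3979.9 in esperamicin A1 cells and 5024, 5820.0 and 3196 in neocarzinostatin cells, against 4604, 3659 and 3324 with methanol vehicle. Irradiation gave 3656, 4115 and 3065 with γ-radiation, against 3283, 4136 and 3502 with mock irradiation. In *SSA1* the methanol arrays overlapped both the drug arrays and the mock arrays. *SSA2* read 3410.2, 2305 and 2640.5 in calicheamicin cells, 2289, 2649.8 and 2286 in esperamicin A1 cells and 2602, 3334 and 2294 in neocarzinostatin cells, against 2843, 2432 and 2328 with methanol vehicle. Irradiation gave for it 2795, 2278 and 1814 with γ-radiation, against 2606, 2795 and 1788 with mock irradiation. The same held for *SSA2*, and the changes of the pair with methanol vehicle were 0.08 ± 0.22 and 0.10 ± 0.21. The 95% interval of the γ-radiation change was -0.47 to 0.44 for *SSA1* and -0.49 to 0.38 for *SSA2*. *SSA3*, a stress-inducible gene with a dim probe set, lay between 8.70 and 14.4 on all arrays.

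The nucleotide exchange factors release ADP from Hsp70, and 2 of the 3 were called with methanol vehicle. *FES1* read 83.6, 64.5 and 69.6 in calicheamicin cells, 84.4, 69.6 and 65.6 in esperamicin A1 cells and 78.6, 64.2 and 68.2 in neocarzinostatin cells, against 94.5, 56.7 and 73.02 with methanol vehicle. It read, for irradiation, 116, 97.02 and 98.1 with γ-radiation, against 164, 145 and 111 with mock irradiation. The 12 arrays of methanol-treated cells, at 56.7 to 94.5 (median 69.6), lay below the 6 others, at 97.02 to 164 (median 114). The change with methanol vehicle was -0.92 ± 0.19, a fold of 1.89 (adjusted p = 0.0101). With γ-radiation *FES1* gave the smallest p of the members, at a change of -0.42 ± 0.19 (adjusted p = 0.553). Of its 3 irradiated arrays 2 lay below all mock arrays and replicate 1 lay above mock replicate 3, and each irradiated array lay below the mock array of the same number. Blocking on the replicate number inside the irradiation arrays gave an adjusted p of 0.170.

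*SSE1* and *SSE2* encode the Hsp110 proteins, of which *SSE2* is the stress-inducible one. *SSE2* read 67.1, 41.6 and 56.2 in calicheamicin cells, 53.4, 40.9 and 51.2 in esperamicin A1 cells and 61.2, 54.2 and 59.8 in neocarzinostatin cells, against 42.8, 30.7 and 48.9 with methanol vehicle. Irradiated cells and their controls gave 51.5, 91.6 and 48.2 with γ-radiation, against 57.2, 105 and 71.7 with mock irradiation. The methanol arrays lay below all mock arrays and all neocarzinostatin arrays. The change with methanol vehicle was -0.92 ± 0.26 (adjusted p = 0.0450). It was not called without methanol replicate 2 (adjusted p = 0.160), without mock replicate 2 (0.197) or with the actin difference as a covariate (0.120). *SSE2* also had the smallest p of the members when the enediyne effect was subtracted from that of γ-radiation, -0.72 ± 0.34 (adjusted p = 0.696), from -0.31 with γ-radiation and 0.41 with the drugs on average. *SSE1* changed by -0.14 with methanol vehicle.

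J-proteins hand substrates to Hsp70 and start its ATPase, and *SIS1* and *APJ1* of the 3 cytosolic ones were called. *SIS1* encodes an essential J-protein that acts with Hsp104 on aggregates and is itself a heat shock factor target. *SIS1* read 186, 95.05 and 145 in calicheamicin cells, 149, 129 and 117 in esperamicin A1 cells and 167, 127 and 157 in neocarzinostatin cells, against 109, 80.1 and 139 with methanol vehicle. The irradiation groups gave 282, 233 and 208 with γ-radiation, against 268, 327 and 218 with mock irradiation. The 12 arrays of methanol-treated cells, at 80.1 to 186 (median 134), lay below the 6 others, at 208 to 327 (median 250.2). With methanol vehicle *SIS1* had the smallest p of all members, at a change of -1.33 ± 0.24, a fold of 2.51 (adjusted p = 0.00455). It was called in 29 of 30 analyses, counting the main one, and not in the local pooled error test. With the drugs it lay above methanol vehicle by 0.36 in calicheamicin cells, 0.29 in esperamicin A1 cells and 0.49 in neocarzinostatin cells on the log2 scale, none called, and with γ-radiation the change was -0.16. The γ-radiation effect less the enediyne one was -0.54 ± 0.31 (adjusted p = 0.709).

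*APJ1* encodes a J-protein of low abundance with a part in clearing nuclear aggregates. *APJ1* read 5.60, 4.37 and 4.71 in calicheamicin cells, 4.42, 4.69 and 5.48 in esperamicin A1 cells and 7.01, 5.30 and 4.85 in neocarzinostatin cells, against 4.48, 4.53 and 4.57 with methanol vehicle. Its irradiation values were 7.43, 8.12 and 6.10 with γ-radiation, against 7.66, 8.67 and 5.60 with mock irradiation. These values lie in the dimmest 25% of genes. The 3 methanol arrays differed by less than 0.1 intensity units and lay below all mock arrays. The change was -0.67 ± 0.18, a fold of 1.59 (adjusted p = 0.0389). It was not called without mock replicate 2 (adjusted p = 0.161) or with the actin difference as a covariate (0.122). *YDJ1*, the general cytosolic J-protein, changed by -0.32 ± 0.23 with methanol vehicle and -0.27 ± 0.23 with γ-radiation.

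**Figure D3:**
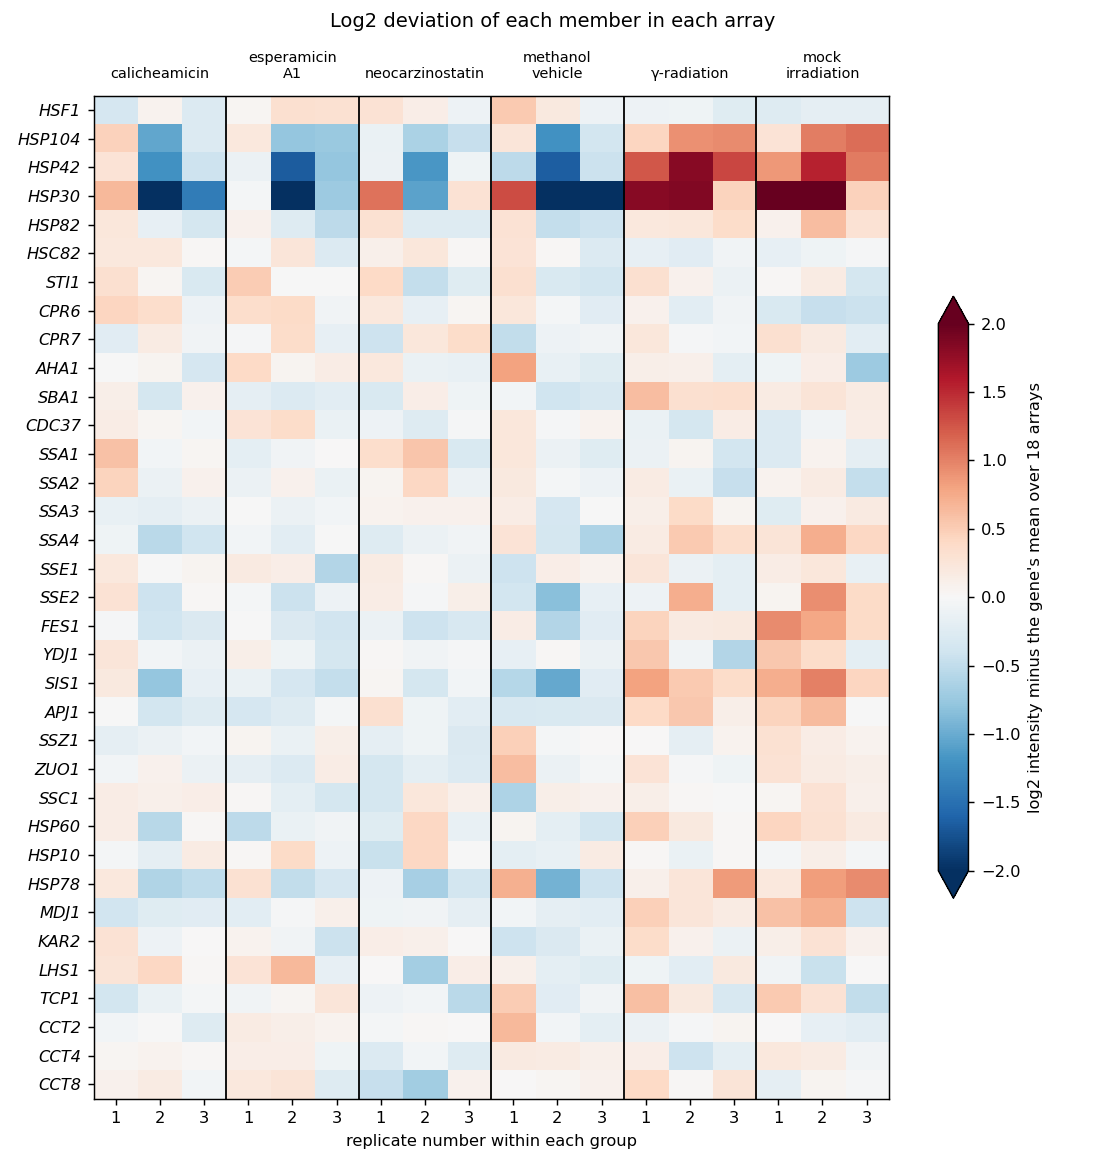
Log2 intensity of each of the 35 members (rows, ordered by role) minus its mean over the 18 arrays, for every array (columns, replicates 1 to 3 within each group). Colours stop at 2 in either direction. *HSP104*, *HSP42* and *HSP30* show the widest deviations, low in most columns of methanol-treated cells and high in most columns of irradiated and mock-irradiated cells.

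At the ribosome, *SSZ1* and *ZUO1* encode the Hsp70 and the J-protein of the ribosome-associated complex, which assists nascent chains. Their change was below 0 with each of the 3 drugs, and none was called. *ZUO1* read 334, 366 and 319.6 in calicheamicin cells, 305, 287 and 383 in esperamicin A1 cells and 271, 302 and 286 in neocarzinostatin cells, against 531, 320.0 and 337 with methanol vehicle. It read around irradiation 418, 342 and 326 with γ-radiation, against 421, 387 and 377 with mock irradiation. In *ZUO1* methanol replicate 1, the array with the lowest actin difference, was the highest of the 18 arrays. *SSZ1* read 232, 243 and 251 in calicheamicin cells, 271, 238 and 285 in esperamicin A1 cells and 232, 247 and 214 in neocarzinostatin cells, against 366, 255 and 265 with methanol vehicle. Around irradiation *SSZ1* read 264, 233 and 275 with γ-radiation, against 325, 292 and 276 with mock irradiation. The same array was the highest of all for *SSZ1*. The *ZUO1* change was -0.43 ± 0.18 with neocarzinostatin (adjusted p = 0.575) and -0.26 ± 0.18 with esperamicin A1 (adjusted p = 0.999). Without methanol replicate 1 these were -0.20 and -0.03. The *SSZ1* change for the mean of the enediynes was -0.25 ± 0.12 (adjusted p = 0.816) and -0.08 without that array.

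The 5 mitochondrial members all lay below 0 with methanol vehicle and none was called. *HSP78*, the mitochondrial counterpart of Hsp104, changed by -0.88 ± 0.36 (adjusted p = 0.145). *HSP78* read 10.8, 6.08 and 6.55 in calicheamicin cells, 11.4, 6.58 and 7.37 in esperamicin A1 cells and 8.65, 5.88 and 7.20 in neocarzinostatin cells, against 15.2, 4.80 and 6.99 with methanol vehicle. Its other arrays gave 9.95, 10.9 and 16.7 with γ-radiation, against 10.7, 16.6 and 17.9 with mock irradiation. Methanol replicate 1 lay inside the mock range and the other 2 methanol arrays lay below it. Without that array the change was -1.35 and was called (adjusted p = 0.0219). *HSP60*, the mitochondrial chaperonin, and its lid *HSP10* changed by -0.48 (adjusted p = 0.191) and -0.08. *SSC1*, the mitochondrial Hsp70 that also pulls proteins through the import channel, and its J-protein *MDJ1* changed by -0.28 and -0.44. In *MDJ1* all 12 arrays of methanol-treated cells lay between 15.2 and 21.2 and 5 of the 6 others between 22.3 and 32.4, while mock replicate 3 read 14.9. Without mock replicate 3 the *MDJ1* change was -0.80 and was called (adjusted p = 0.00801).

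In the endoplasmic reticulum, *KAR2* encodes BiP, the Hsp70 of the lumen, and *LHS1* its exchange factor. *KAR2* read 848, 646 and 700.3 in calicheamicin cells, 725, 660.5 and 516 in esperamicin A1 cells and 762, 747 and 696 in neocarzinostatin cells, against 522, 566 and 631 with methanol vehicle. It read for irradiation 892, 733 and 639 with γ-radiation, against 753, 850.2 and 734 with mock irradiation. All calicheamicin and neocarzinostatin arrays lay above all methanol arrays, and all methanol arrays lay below all mock arrays. The change was 0.35 ± 0.16 with calicheamicin (adjusted p = 0.923), 0.36 ± 0.16 with neocarzinostatin (adjusted p = 0.586) and 0.28 ± 0.13 for the mean of the enediynes (adjusted p = 0.816), and -0.44 ± 0.16 with methanol vehicle against mock irradiation (adjusted p = 0.111). *LHS1* read 23.6, 26.1 and 20.0 in calicheamicin cells, 23.7, 30.9 and 17.6 in esperamicin A1 cells and 19.9, 12.3 and 21.5 in neocarzinostatin cells, against 21.2, 17.2 and 16.6 with methanol vehicle. Its remaining arrays gave 18.5, 16.9 and 22.5 with γ-radiation, against 18.8, 14.5 and 19.7 with mock irradiation. The *LHS1* change with esperamicin A1, 0.36 ± 0.23 (adjusted p = 0.999), had the smallest p of the members for that drug, and the groups overlapped.

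The cytosolic chaperonin CCT, a ring complex that folds actin and tubulin, is represented by *TCP1*, *CCT2*, *CCT4* and *CCT8*, 4 of its 8 subunits. None was called. *CCT4* read 164, 168 and 163 in calicheamicin cells, 176, 175 and 150.1 in esperamicin A1 cells and 132, 155 and 134 in neocarzinostatin cells, against 181, 180.2 and 173 with methanol vehicle. In the irradiation groups it read 175, 119.5 and 140.5 with γ-radiation, against 185, 179 and 153 with mock irradiation. All calicheamicin and neocarzinostatin arrays lay below all methanol arrays. The change with neocarzinostatin was -0.35 ± 0.15 (adjusted p = 0.575). *CCT8* changed by -0.40 with neocarzinostatin and 0.28 with γ-radiation, *TCP1* by -0.30 and 0.06, and *CCT2* by -0.13 and 0.09.

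The direct comparison of the exposures gave no called member. Subtracting the mean effect of the drugs from that of γ-radiation called 0 of the 35 genes, where 0.336% of all genes were called. An unadjusted limma p under 0.05 was given by 1 member, *SSE2* (2.86%), where 402 genes (7.11%) gave one. For *HSP42*, *SBA1*, *FES1* and *SIS1* all 12 arrays of methanol-treated cells lay below all 6 irradiated and mock-irradiated arrays, where 2.67% of all genes did so. When the mean of both control groups was made the control of both exposures, so that the difference became irradiated minus drug-treated arrays, 4 members (11.4%) were called higher with γ-radiation, where 345 genes, 6.1% of those tested, were called higher, and 0 were called lower, where 345 genes, again 6.1%, were called lower. They were *HSP42* at 2.05 (adjusted p = 0.000960), *SIS1* at 0.79 (0.0120), *HSP104* at 1.14 (0.0192) and *HSP30* at 2.01 (0.0805). These 4 were among the 8 that were lower with methanol vehicle than with mock irradiation.

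Within the drug and methanol groups several members followed the replicate number. The same number gave the highest array in all 4 of these groups for 6 members, *HSP104*, *HSP30*, *HSP82*, *STI1*, *FES1* and *HSP78*, each time replicate 1, where 10.1% of all genes had a number in common. The same number gave the lowest array for 6 members, where 11.1% of all genes did, and it was replicate 2 for *HSP104*, *HSP42*, *HSP30*, *SSE2* and *HSP78* and replicate 3 for *HSC82*. In the irradiated and mock-irradiated groups *HSP104* and *HSP78* were instead lowest in replicate 1, and *HSP30* was lowest in replicate 3. In methanol vehicle *HSP30* read 158 in replicate 1 against 8.49 in replicate 2, on the log2 scale a wider gap than between the means of any 2 groups. What the numbers stand for in the culture or array work is not given in the sources used here.

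**Figure D4:**
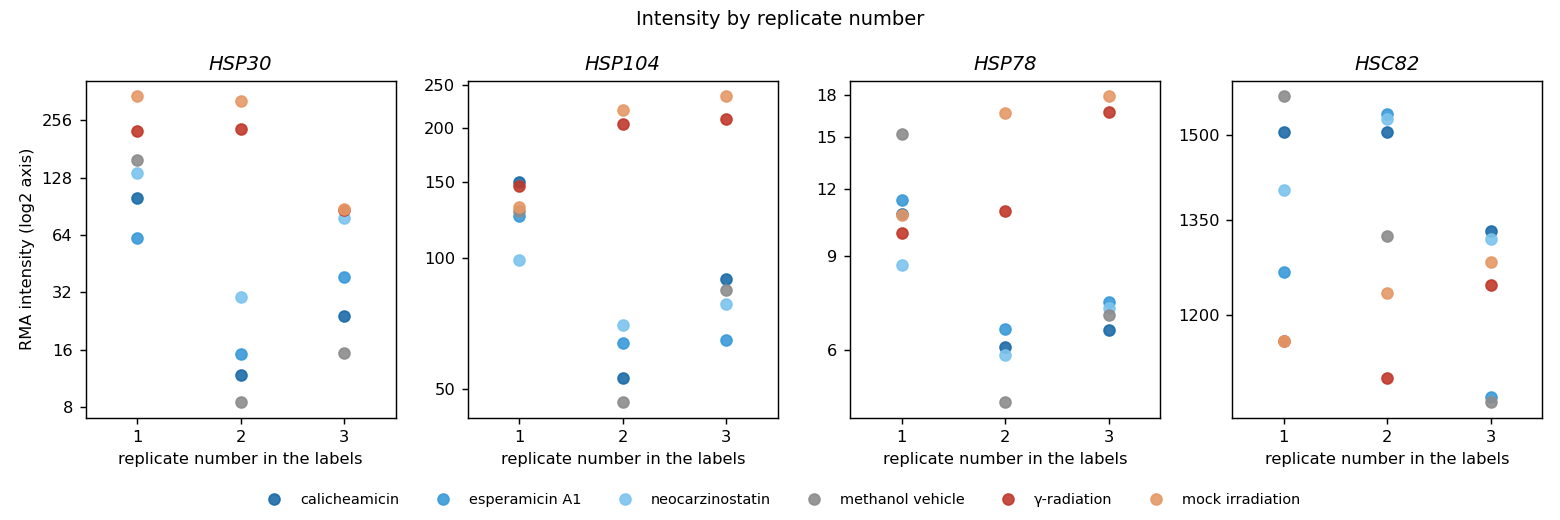
RMA intensity on a log2 axis by the replicate number in the sample labels, for 4 members, with 1 point per array coloured by group. In the drug and methanol groups *HSP30*, *HSP104* and *HSP78* are highest in replicate 1 and lowest in replicate 2, and *HSC82* is lowest in replicate 3.

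Beyond the members, 76 of 80 further folding and stress genes had a probe set of their own: the other CCT subunits and prefoldin, other Hsp90 co-chaperones, J-proteins, sequestration proteins, mitochondrial and endoplasmic reticulum folding factors, prolyl isomerases, the nascent polypeptide-associated complex, and regulators and targets of the general stress response. No exposure called any of them in limma, nor did the mean of the drugs (0 of 76 in each case). The study, with its own test, placed *MSN2* and *MSN4* among genes induced by both kinds of exposure. It also associated elevated *HSP26* with single-strand damage. With γ-radiation the smallest limma adjusted p was 0.048, in the endoplasmic reticulum group, so the adjusted p threshold was met there. Changes in that group ran from -0.25 to 0.58, and none reached the 1.5-fold required. At an unadjusted p under 0.05 limma gave 7 of them for γ-radiation (9.21%, against 8.70% of all genes) and 8 for neocarzinostatin (10.5%, against 8.22%). It gave 4 for calicheamicin (5.26%, against 3.89%) and 7 for esperamicin A1 (9.21%, against 3.66%). With methanol vehicle against mock irradiation 7 of the 76 were called lower, where 5.59% of all genes were, and 0 higher, where 3.11% were. In each of the 7 all methanol arrays lay below all mock arrays, which being called makes likely. Of all genes 14.3% were separated in this way.

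*BTN2* and *CUR1* encode paired factors that sort misfolded proteins to deposits, as Hsp42 does. *BTN2* read 43.3, 10.5 and 14.3 with methanol vehicle, against 70.4, 80.7 and 66.6 with mock irradiation, a change of -1.96 ± 0.42 (adjusted p = 0.0113). *CUR1* read 3.87, 3.45 and 4.65 with methanol vehicle, against 8.51, 10.1 and 7.35 with mock irradiation, a change of -1.12 ± 0.25 (adjusted p = 0.0148). Methanol replicate 1 stood above the other 2 methanol arrays in *BTN2*. *CCT6*, a chaperonin subunit, and *GIM5*, a subunit of the prefoldin complex that delivers actin and tubulin to it, changed by -0.70 ± 0.19 (adjusted p = 0.0364) and -0.77 ± 0.21 (adjusted p = 0.0348). *HLJ1*, a J-protein anchored in the endoplasmic reticulum membrane, changed by -0.70 ± 0.19 (adjusted p = 0.0399). In *CCT6*, *GIM5* and *HLJ1* methanol replicate 1, the array with the lowest actin difference, was the lowest methanol array, and the part of RNA quality in these changes was not tested. *PGM2*, a phosphoglucomutase, and *DDR2*, a small stress protein, both targets of Msn2 and Msn4, changed by -1.88 ± 0.41 (adjusted p = 0.0119) and -1.27 ± 0.32 (adjusted p = 0.0278). By median change the 76 genes stood at -0.13, where all genes stood at -0.05. Of the 9 groups they form, the 5 sequestration and small heat shock genes stood lowest at -1.03, followed by the 10 general stress genes at -0.53, while the 6 other Hsp90 co-chaperones stood at 0.21 and the remaining 6 groups between -0.16 and -0.0044.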

How the data were processed

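Arrays were read as deposited: the authors hybridized each culture to an Affymetrix YG-S98 GeneChip and made the intensity values with RMA, which corrects background, applies quantile normalization and summarizes probes, and the deposited table holds them on a linear scale. The RMA version is not given in the sources used here. Log2 was taken and nothing was rescaled. Of 9335 probe sets 6504 carry 1 gene symbol, 328 several, 2443 none and 60 are controls. The file held 0 columns of other samples. The study's Absent/Present filter was not applied. No sequence or coordinate was used.

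All contrasts came from 1 limma 3.58.1 model (lmFit and eBayes, R 4.3.3) of the 6 groups, with 12 residual degrees of freedom and 5.37 prior ones, over 5656 genes. Calls used the study's thresholds, a fold of 1.5 and an adjusted p of 0.10, with limma in place of the study's test. The fitting code was checked on simulated arrays with 200 genes changed in the γ-radiation group. At the thresholds for a call it recovered 25.4% of the 1.5-fold changes, 86.6% of the 2-fold and 98.5% of the 4-fold ones. Most changes near 1.5-fold would thus go uncalled. Precision is limited by the number of arrays. The model has no replicate block. Pairing was checked from the values, since the labels only number the replicates: residuals of same-numbered arrays correlated at 0.65, 0.51 and 0.67 for γ-radiation with mock irradiation, 0.17, 0.13 and 0.40 for calicheamicin and 0.37, 0.18 and 0.12 for neocarzinostatin with methanol vehicle, which counts as paired, but at 0.19, 0.35 and -0.09 for esperamicin A1 and at -0.16, -0.10 and -0.15 between the controls.

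Alternatives were cyclic loess, median centring, leaving out the dimmest 25% of genes, a trend on intensity, a replicate block over all arrays or inside each control family, an adjusted p of 0.05, no fold threshold, the compared groups alone, all 6 control arrays as control, every single-gene probe set, the actin difference as a covariate, each array left out in turn, and the local pooled error test, the study's own, rebuilt from its description with a spline of spread on intensity. The rebuilt test may differ in detail from the study's version. With neocarzinostatin it called 3 of 5656 genes, fewer than the study lists for that drug. All members are named. Values in every array are given for members called in any comparison and for the 2 with the smallest p in each, besides near-identical pairs and a few whose call hinges on 1 array. The members and the lists of other folding genes were chosen with earlier results of these data known.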

Additional observations from a re-analysis of the deposited data

How the results depend on the processing

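In the comparison of methanol vehicle with mock irradiation the number of members called was 8, and it was 2 when only the compared groups were fitted, 1 with the local pooled error test and 3 to 10 when arrays were left out in turn, lowest without mock replicate 2 and highest without methanol replicate 1. Cyclic loess gave 7 members, without *HSP104*. The 8 members kept a negative change in every analysis run. The replicate block over all arrays also gave 8 members there, and as a block in any other comparison, or within each control family, it gave 0 members. The block over all arrays assumes 1 replicate effect shared by both families, and the block within each family was not run between the controls. Whether pairing inside each family alters the 8 calls was therefore not tested. The actin difference as a covariate gave 8 members with *HSP78* and *HSP82* in place of *APJ1* and *SSE2*. The median change there was -0.28 with the local pooled error test and -0.30 to -0.079 when arrays were left out. With arrays left out the median with calicheamicin ran over -0.034 to 0.15 and with esperamicin A1 over -0.021 to 0.15. The local pooled error test called 1 member with neocarzinostatin.

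With all 6 control arrays as the control, 1 member, *HSP42*, was called with γ-radiation at 1.33 (limma adjusted p = 0.0709), and the median was 0.11 with γ-radiation, -0.081 with calicheamicin and -0.069 with the drugs on average. The *FES1* change with γ-radiation turned to 0.041. For γ-radiation less the enediynes 4 members were called, the median was 0.11, and *SSE2* and *SIS1* turned to 0.20 and 0.79, since this setting sets irradiated against drug-treated arrays. Not run were the local pooled error test on the average of the enediynes and the difference, the block within each family and the 6 controls between the controls, and the compared groups alone for the difference. *APJ1* has no value without the dimmest 25% of genes. Apart from the setting with all 6 control arrays, the cause of the shifts was not tested. Dim members, with means below the array medians, have the least signal over background.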
